A study of Caenorhabditis elegans with 6 samples.

Results

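The Hedgehog-related and Patched-related genes of Caenorhabditis elegans were examined as possible target genes of ELT-3, a GATA-type transcription factor of the epidermis. The members were all protein-coding genes of the WBcel235 annotation with names starting wrt-, grl-, grd-, hog-, ptr- or ptc-. They numbered 84 of 19973 protein-coding genes, with 10 wrt, 31 grl, 16 grd, 1 hog, 24 ptr and 2 ptc genes. ELT-3 occupancy was measured by chromatin immunoprecipitation sequencing (ChIP-seq), in which DNA fragments bound by a protein are recovered with an antibody and sequenced, and regions rich in fragments are called as peaks. All 6 libraries belonged to 1 group. They came from strain OP75, with the genotype unc-119(ed3) III; wgIs75, which stably expresses ELT-3 with a GFP-FLAG tag at its C terminus. Males and females were pooled at larval stage L3, age was given as unknown, and chromatin of whole animals was sonicated. The tagged transgene was therefore present in every library, and cell types cannot be told apart in these values. The libraries formed 4 biological replicates, numbered 1, 2, 4 and 5, and replicate 2 was 3 technical libraries counted as 1 sample. Its peak list was assigned to it through the deposited listings of those libraries.

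Hedgehog proteins are secreted, lipid-modified signals in many animals, and Patched is their receptor, a membrane protein with a sterol-sensing domain. C. elegans has no clear Hedgehog gene and no Smoothened, the usual signal transducer below Patched, but it has enlarged families of related genes. The warthog (wrt), groundhog (grd), ground-like (grl) and hog genes encode secreted Hedgehog-related proteins, and the ptr and ptc genes encode Patched-related membrane proteins. Many of them are known to act in the epidermis, the seam or glia, in molting and in the cuticle.

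The data are peak lists, each peak with a summit and a signal value from the authors' caller. The optimal list held the 1047 strongest of the 14525 peaks called on pooled reads, with signal from 39.9 to 234. A wider list took the 3141 strongest pooled peaks, 3 times the optimal number, and reached down to a signal of 26.2. The pooled list and the replicate lists hold background regions beside peaks, per the deposited listings. Each replicate list held 30000 regions, of which 29986 were nuclear in replicate 5. Signal was used only to rank peaks within a list, where rank 1 is the strongest, and read depth is unknown. A gene was called bound when a summit lay between 1000 bp upstream and 200 bp downstream of one of its annotated 5′ ends, and negative offsets below are upstream. The gene of the targeted factor, elt-3, had its strongest pooled promoter summit at rank 175 (offset −599). Its strongest promoter summit ranked 242, 57, 303 and 453 in replicates 1, 2, 4 and 5. Those summits lay at offsets of 154, −582, −563 and −660 from the nearest of its 6 annotated 5′ ends. Their positions spread over 814 bp, so the 4 ranks do not belong to 1 site. The transgene in every library also encodes ELT-3, and its part in these elt-3 ranks was not tested.

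The count of bound members in the optimal list was 1 of 84, wrt-3, which encodes a warthog protein. This is 1.19% of the members (Wilson 95% interval 0.21 to 6.44%), where 2.95% of all protein-coding genes were bound. Among the 3141 strongest pooled peaks, 3 members were bound, wrt-3, grl-26 and ptr-18, which is 3.57% of the members (1.22 to 9.98%), against 7.84% of all genes. Both intervals include the share of all genes, so neither count stood apart from the background. The direction turned with the assignment rule: with each summit given to its nearest 5′ end within 1000 bp, 3 members were bound in the optimal list and 7 in the wider list, 3.57 and 8.33% against 2.68 and 7.38% of all genes. With the promoter window, no grd, hog or ptc gene was bound in either set. For the 16 grd genes a count of 0 allows a share of up to 18.8%. With the shares of each chromosome weighted by where the members lie, the share of all genes was 2.76% for the optimal list and 7.43% for the wider list. The members were concentrated on chromosome V, with 32 of the 84 genes there (38.1%, against 25% of all genes), a chromosome on which 1.76% of genes were bound in the optimal list.

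The letters at the 3 bound promoters are shown because the summits differ in what lies under them. Each is the plus strand of WBcel235 (ce11), read 5′ to 3′. At wrt-3 capitals mark the snoRNA gene F38E11.14, at chrIV:9477629-9477804 with the summit at 9477754. At grl-26 capitals mark the tRNA gene WBGene00023092 as far as it is printed, at chrIV:322598-322686 with the summit at 322648. At ptr-18 capitals mark the GATA sites, at chrII:12965648-12965748 with the summit at 12965698.
wrt-3: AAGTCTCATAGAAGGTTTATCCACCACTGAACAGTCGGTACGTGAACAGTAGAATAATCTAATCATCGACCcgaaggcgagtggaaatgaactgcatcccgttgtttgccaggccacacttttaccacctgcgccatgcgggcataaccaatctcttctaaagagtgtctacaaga
grl-26: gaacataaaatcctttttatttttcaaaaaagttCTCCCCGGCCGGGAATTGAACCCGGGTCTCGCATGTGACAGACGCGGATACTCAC
ptr-18: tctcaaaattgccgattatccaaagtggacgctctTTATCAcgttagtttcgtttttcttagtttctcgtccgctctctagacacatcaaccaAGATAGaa

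The wrt-3 summit was the strongest promoter summit of the members in the pooled list, and it had the narrowest spread of position among the 8 members with a summit in all 4 replicates. A summit in all 4 whole lists was present for 9.52% of members and 9.59% of all genes, and the spread over all genes is not given here. The gene wrt-3 (WBGene00006949) lies on the minus strand of chromosome IV from 9473633 to 9477456, and its peak spanned 9477586 to 9477921. The summit, with a signal of 58.4, ranked 340 of the pooled peaks at an offset of −298. Its strongest promoter summit ranked 6661, 829, 340 and 3059 in replicates 1, 2, 4 and 5, with signals of 7.99, 11.3, 26.1 and 7.86 on each list's own scale. It was thus among the 1047 strongest of replicates 2 and 4, among the 3141 strongest of replicate 5, and below both cuts in replicate 1. The 4 replicate summits fell at offsets of −301, −339, −307 and −323, within 38 bp of one another and each within 100 bp of the pooled summit.

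The annotation at that site holds other genes. The summit lay in an intron of cng-3, a cyclic nucleotide-gated channel gene on the same strand that ends at 9477522, between the summit and wrt-3. It was also 55 bp upstream of the 5′ end of the snoRNA gene F38E11.14 (9477629 to 9477699, minus strand), printed above in capitals. The window of 50 bp on either side of the summit held no GATA site, on either strand. A GATA site here means AGATAA, or the same letters with a first T, a last G or both of these changes. Which of these genes the occupancy belongs to was not tested.

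The ground-like gene grl-26 (WBGene00001735, chromosome IV, minus strand, 321514 to 322814) ranked 1428 in the pooled list with a signal of 35.3, below the optimal list's lowest value of 39.9. Its summit was 166 bp inside the gene, in an intron of grl-26 and within the tRNA gene WBGene00023092 (322632 to 322703, minus strand). In the replicates its strongest promoter summit ranked 17244 in replicate 1 and 1924 in replicate 4, and replicates 2 and 5 had none. Both replicate summits lay within 100 bp of the pooled one. Only replicate 4 placed it among its 3141 strongest regions. Of the 31-base words in the grl-26 peak, 19.6% occurred more than once in the genome.

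The Patched-related gene ptr-18 (WBGene00004232, chromosome II, plus strand, 12965546 to 12978171) was the only member of its family bound among the 3141 strongest pooled peaks, ranking 2013 with a signal of 31. The summit was 152 bp inside the gene in its intron, and 2 GATA sites lay within 50 bp of it. Its strongest promoter summit ranked 2003, 27401, 1880 and 23572 in replicates 1, 2, 4 and 5, high in replicates 1 and 4 and weak in the other 2. The offsets were −468, −527, 179 and −281, and only the summit of replicate 4 lay within 100 bp of the pooled one.

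tRNA, snoRNA and snRNA genes lay within 200 bp of 1 of 1 optimal member summit and 2 of 3 member summits of the wider list. Over all promoter summits they lay near 34 of 493 in the optimal list (6.9%) and 75 of 1392 in the wider list (5.39%). With such summits left out, which was an alternative added once the values were known, no member remained in the optimal list, where 2.77% of all genes were bound. In the wider list, ptr-18 remained, against 7.46% of all genes. The part of the small RNA genes in the occupancy at wrt-3 and grl-26 was not tested.

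**Figure D1:**
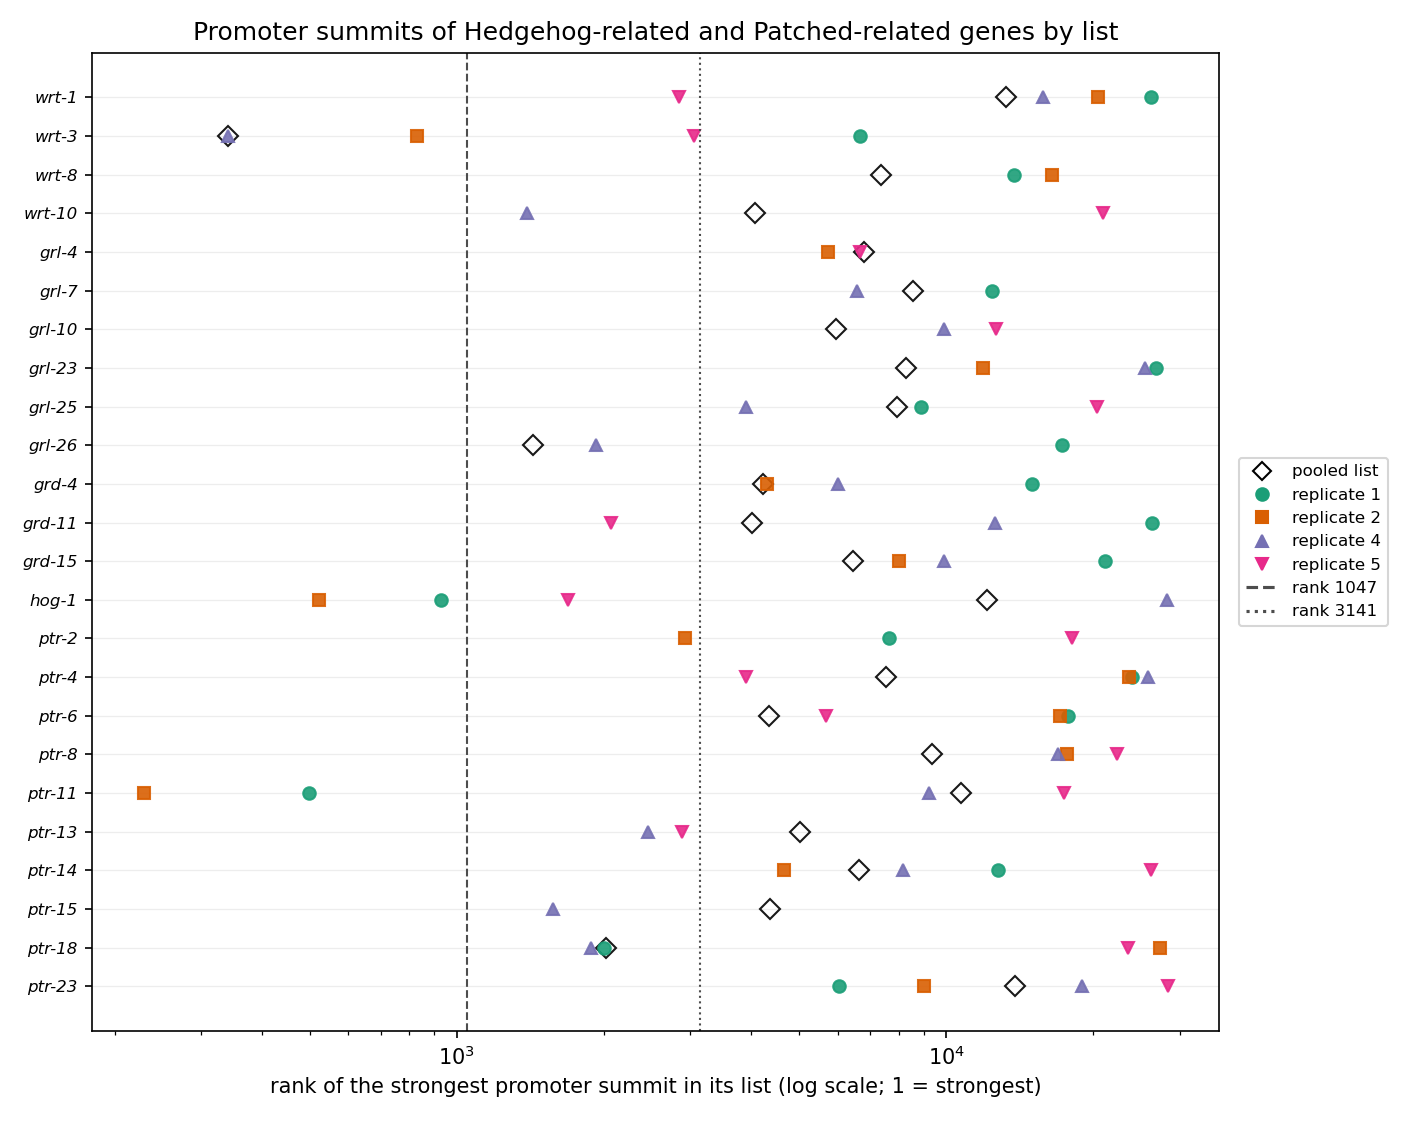
Rank of the strongest promoter summit of each of 24 members in the pooled list and in each replicate list (horizontal axis, log scale, 1 is the strongest), for members with a pooled summit or with a summit among the 3141 strongest regions of a replicate. Broken lines mark ranks 1047 and 3141, and the wrt-3 points lie between 340 and 6661 while those of hog-1 reach from 523 to 28312.

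In the single replicates the members also lay near the share of all genes. Among the 1047 strongest regions, 2, 3, 1 and 0 members were bound in replicates 1, 2, 4 and 5. Their shares were 2.38, 3.57, 1.19 and 0%, against 2.13, 2.41, 2.88 and 2.75% of all genes, higher in replicates 1 and 2 and lower in replicates 4 and 5. A count of 0 of 84 in replicate 5 allows a share of up to 3.57%. Among the 3141 strongest, the counts were 3, 4, 6 and 5 (mean 4.5 ± 1.29, SD, n = 4), which is 3.57, 4.76, 7.14 and 5.95%, against 5.74, 6.11, 7.39 and 7.53% of all genes. As a share of the 84 genes the mean was 5.36% ± 1.54, and that of all genes was 6.69% ± 0.903. The whole lists held a promoter summit for 38, 27, 36 and 39 members, a mean of 41.7% ± 6.52, where the shares of all genes were 39.0, 38.4, 40.3 and 40.5%. Because the lists contain background, these last counts say little about occupancy. Within the same replicate, the members' share over the 3141 strongest regions was below that of all genes in 4 of 4 replicates, with a mean difference of −1.34 percentage points ± 0.801 (SD, n = 4). Over the 1047 strongest it was lower in 2 of 4 (−0.756 ± 1.78), and over the whole lists in 1 of 4 (2.09 ± 5.81). The replicates score the same 84 genes, so these SDs do not cover the counting error over genes. With the nearest 5′ end the replicate mean was 9.52% of members against 7.04% of all genes.

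**Figure D2:**
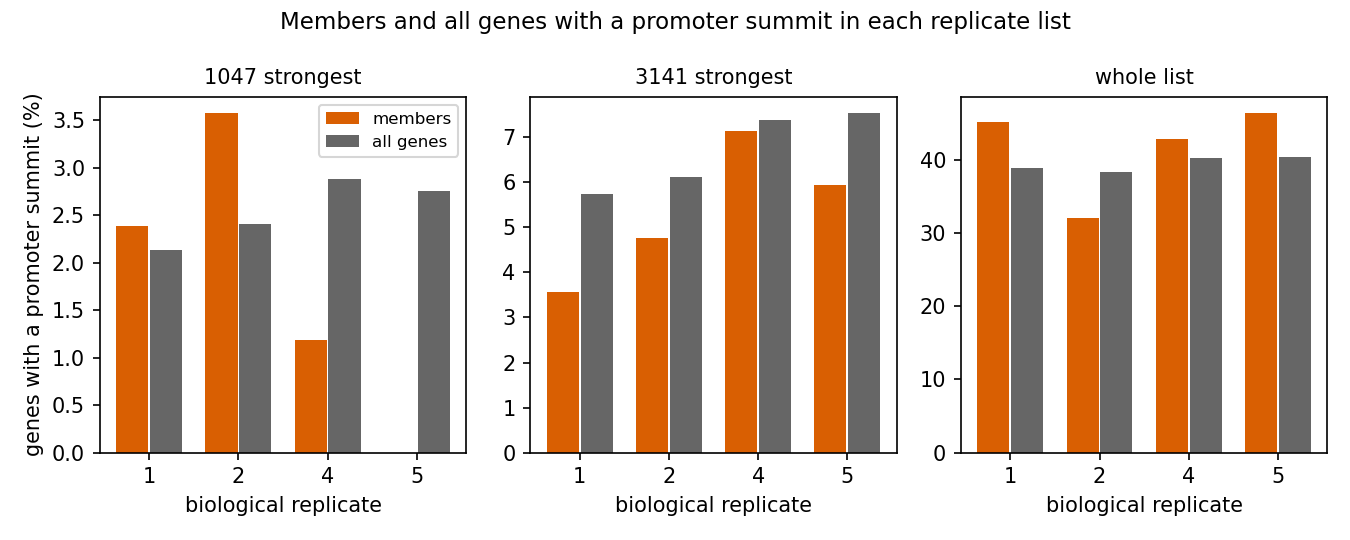
Percent of genes with a promoter summit in the regions of each replicate list, for the 84 members and for all 19973 protein-coding genes. Over the 3141 strongest regions, the means of the 4 replicates were 5.36% for the members and 6.69% for all genes.

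The bound members differed between replicates. Of the 84, 11 were bound among the 3141 strongest regions of at least 1 replicate (13.1%, against 16.8% of all genes). Only wrt-3 and hog-1 were bound in at least 3 of the 4, which is 2.38% against 2.73% of all genes, and no member was bound in all 4, where 0.956% of all genes were. Among the 1047 strongest regions, 3 members (wrt-3, hog-1 and ptr-11) were bound in at least 2 replicates, 3.57% against 2.42% of all genes. The members bound in 1 replicate alone were grl-26, ptr-15 and wrt-10 in replicate 4, ptr-2 in replicate 2, and grd-11 and wrt-1 in replicate 5. ptr-13 was bound in replicates 4 and 5, ptr-18 in replicates 1 and 4, and ptr-11 in replicates 1 and 2.

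hog-1 (WBGene00001984, chromosome X, minus strand, 5851953 to 5854263), the single gene of its class, ranked 929, 523, 28312 and 1689 in replicates 1, 2, 4 and 5. Replicate 4 thus stood far below the other 3. The summits behind these ranks were not at 1 place. Their offsets were −83, −694, 133 and −416 from the nearer of its 2 annotated 5′ ends, and their positions spread over 1721 bp. In the pooled list hog-1 ranked 12142 with a signal of 16.8 at an offset of −500, and no replicate's strongest summit lay within 100 bp of that position.

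ptr-11 (WBGene00004225, chromosome I, minus strand, 160172 to 169763), a Patched-related gene, had the highest replicate rank of any member. It ranked 498, 229, 9239 and 17425 in replicates 1, 2, 4 and 5, and 10735 in the pooled list. The high ranks came from replicates 1 and 2, with offsets of −353 and 127 from the nearest of its 3 annotated 5′ ends. Over the 4 replicates the positions spread over 5017 bp. The windows of 50 bp on either side of the summits of replicates 1 and 2 had GC contents of 24.8 and 20.8%, where the median at the 493 optimal promoter summits was 44.6%. The replicate lists hold background as well, and no median for their strongest regions is given here. The part of base composition in these ranks was not tested.

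Most members with a pooled promoter summit had a weak one. The whole pooled list held a promoter summit for 23 members (27.4%), against 24.2% of all genes. Down to rank 4188 the shares were 5.95% of members and 9.67% of all genes, down to 6282 they were 11.9 and 13.2%, and down to 8376 they were 20.2 and 16%. The cumulative share of members was thus below that of all genes down to rank 6282 and above it down to rank 8376. The members' interval included the share of all genes at each of these ranks, and the pooled list contains background.

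**Figure D3:**
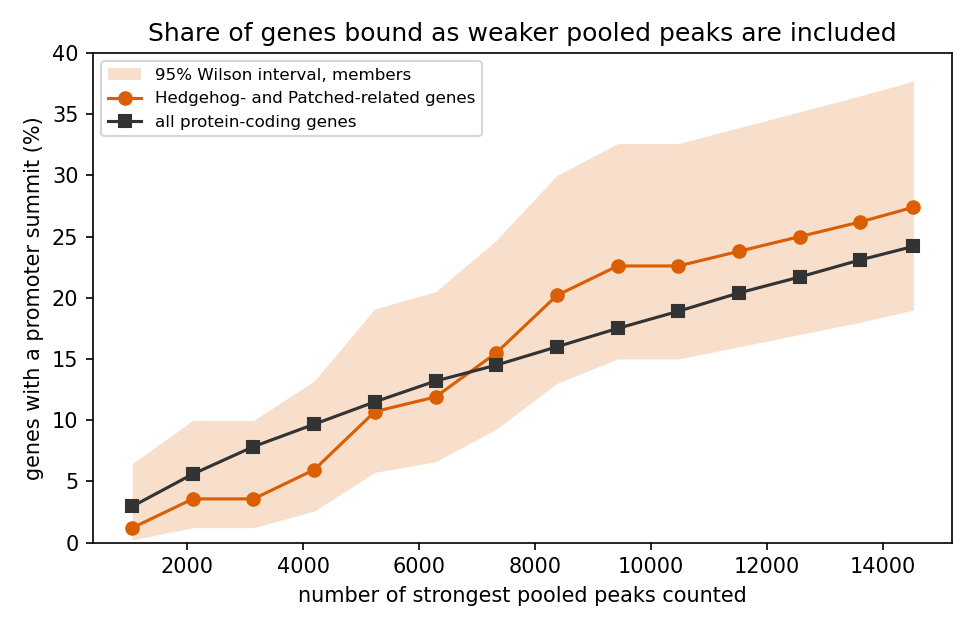
Cumulative percent of genes with a promoter summit as more peaks of the pooled list are taken, strongest first, for the 84 members and for all protein-coding genes. At the end of the list, rank 14525, the shares were 27.4% and 24.2%.

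Among the secreted Hedgehog-related genes, the warthog members next to wrt-3 in the pooled list were wrt-10 at rank 4068 (signal 24, offset −15), wrt-8 at 7347 and wrt-1 at 13238. The wrt-10 summit also lay in the promoter window of ZK1290.13, and it ranked 1389 in replicate 4 and 20940 in replicate 5, with none in the other 2. Of the ground-like genes, grl-10 followed grl-26 at rank 5941, grl-4 at 6780 and grl-25 at 7942. The groundhog genes were led by grd-11 at rank 4014 (signal 24.1, offset −751), which ranked 2070 in replicate 5, then by grd-4 at 4215 and grd-15 at 6446. None of these groundhog summits reached the 3141 strongest pooled peaks.

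Among the Patched-related membrane proteins, ptr-6 at rank 4344, ptr-15 at 4374 and ptr-13 at 5016 followed ptr-18. ptr-15 ranked 1575 in replicate 4 and had no promoter summit in the other replicates. ptr-13 ranked 2458 and 2881 in replicates 4 and 5 and had none in replicates 1 and 2. ptc-1 and ptc-3, the closest relatives of Patched, had no pooled promoter summit. Their windows held regions of replicate 5 alone, at ranks 18175 and 13164.

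No promoter summit in any of the 5 lists, pooled or replicate, was found for 17 members. These were wrt-4, wrt-6, grl-5, grl-8, grl-15, grl-19, grl-24, grl-27, grl-28, grl-29, grl-30, grd-2, grd-7, grd-16, ptr-21, ptr-24 and ptr-25. The other 67 had a region in at least 1 replicate's whole list (79.8%, against 76.3% of all genes).

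Optimal summits also lay inside or next to members, outside the promoter window. With the gene body and 2000 bp on either side, a region chosen after the data were seen, 13 members held an optimal summit (15.5%, 9.27 to 24.7%, against 6.97% of all genes), at 13 different summits. One of these is the wrt-3 summit described above, and the other 12 lay outside the members' promoter windows. In the gene body alone there were 5 members (5.95%, 2.57 to 13.2%), against 1.62% of all genes. Neither interval included the share of all genes, and both regions were chosen after the data were seen. Gene length moves such counts, and the median length was 2627 bp for members and 2027 bp for all genes. Its part in the difference was not tested.

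The letters at the intronic summits of wrt-1 and grl-15 are shown because these strong summits held GATA sites. They are the plus strand of WBcel235 (ce11) with GATA sites in capitals, 50 bp on either side of the summit, at chrII:7531634-7531734 for wrt-1 and at chrIII:12234135-12234235 for grl-15.
wrt-1: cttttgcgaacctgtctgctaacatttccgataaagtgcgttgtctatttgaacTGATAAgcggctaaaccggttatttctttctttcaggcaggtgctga
grl-15: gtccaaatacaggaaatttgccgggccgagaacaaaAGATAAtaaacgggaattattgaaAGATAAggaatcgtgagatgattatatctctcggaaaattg

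The highest of the 5 intragenic summits was in ptr-12, at rank 50 with a signal of 103. It lay in a coding exon on chromosome I, 7471 bp from the gene's nearest 5′ end, and held 3 GATA sites. The nearest 5′ end of any protein-coding gene was that of fbp-1, 1699 bp away. A summit within 100 bp ranked 20, 80 and 42 in replicates 2, 4 and 5, and replicate 1 had none there. It was the strongest optimal summit inside or within 2000 bp of a member.

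The warthog gene wrt-1 held an optimal summit in an intron, 688 bp inside the gene, at rank 383 with a signal of 56.3 and 1 GATA site. This summit was found in all 4 replicates, at ranks 253, 226, 1271 and 1052. It also lay within 2000 bp of wrt-10. In grl-15, a ground-like gene, the intronic summit ranked 747 with a signal of 45 and 2 GATA sites, and ranked 179, 1762 and 1819 in replicates 1, 4 and 5 with none in replicate 2.

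The other 2 intragenic summits were weaker. wrt-2 held one in its 3′ UTR at rank 842 with a signal of 42.9 and 1 GATA site, found at ranks 204, 878 and 8441 in replicates 1, 2 and 4. ptr-11 held one in an intron at rank 942 with a signal of 41.2, found at ranks 13755, 15451 and 1087 in the same replicates. Of the 13 summits, 4 had a GATA site within 50 bp, (30.8%, against 413 of all 1047 optimal summits, 39.4%). These 4 were intragenic, in ptr-12, wrt-1, grl-15 and wrt-2.

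Of all 1047 optimal summits, 493 lay in the promoter window of a protein-coding gene. Of the 13 summits in or near members, 6 fell in the promoter window of a gene outside the set. The strongest was 810 bp downstream of grl-6 at rank 117, in the promoter window of fah-1, which encodes fumarylacetoacetate hydrolase. The summit downstream of grl-10 at rank 238 lay in the windows of the ribosomal protein genes rpl-39 and rps-30 and of C26F1.3, and that near ptr-2 at rank 474 in the window of rpl-13. The summit near wrt-5 at rank 683 lay in the window of pcn-1, the gene of the replication clamp PCNA. The remaining 2, upstream of grl-17 at rank 323 and of wrt-1 at rank 529, lay in the windows of slrp-1 and ZK1290.5. The last of the 13, at rank 350, was 1431 bp downstream of ptr-24 and in no promoter window. The 5′ end nearest to it was that of mxl-3, at 1248 bp. Over the replicates, 8 of the 13 summits were among the 1047 strongest regions of at least 2 replicates, none of all 4, and 2 of no replicate. The same counts over all optimal summits are not given here, so these counts do not compare members with other genes.

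**Figure D4:**
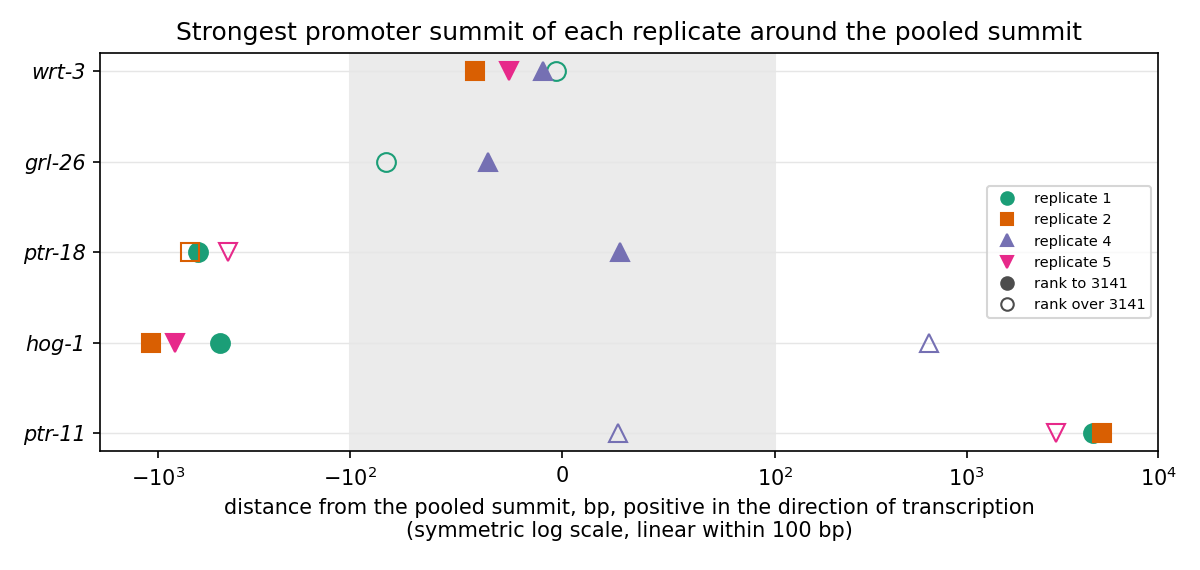
Distance of the strongest promoter summit from the pooled summit of the same gene, for each replicate, in bp along the direction of transcription on a symmetric log axis that is linear in the shaded 100 bp. Filled marks are summits among the 3141 strongest regions of their replicate. The 4 wrt-3 points lie within 100 bp of the pooled summit, while for ptr-18 only the point of replicate 4 does.

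Summits of the wider list outside the promoter window but near it included that at ptr-14, 295 bp inside the gene (rank 2861, signal 27). Others were at wrt-1 (688 bp, above) and at grl-7, 791 bp inside (rank 2672). A summit of ptr-23 (rank 2929) lay in an intron of the gene. Its offset of −1198 is from 1 of the gene's 2 annotated 5′ ends, which lies inside the gene. Upstream of grl-17 and ptr-25, summits lay at offsets of −1488 (rank 323) and −1521 (rank 2103). The nearest inside the window were ptr-18 at 152 bp and grl-26 at 166 bp.

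GATA letters were common in the promoter windows of members and of other genes. A window held at least 1 site in 78 of 84 members (92.9%) and in 94.5% of all genes, with a median of 3 sites in both. TGATAA was present in 67.9% of members and 75.4% of all genes. At the summits of the wider list, 1 of 3 member summits had a GATA site within 50 bp (33.3%, 6.15 to 79.2%), and 475 of 1392 promoter summits did (34.1%), against 22% in windows centred 350 bp away. In the optimal list the counts were 0 of 1 and 177 of 493 (35.9%). A match describes the letters and does not show a site in use.

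Other genes of Hedgehog-type and sterol-sensing-domain biology were taken as a list of 16. None was bound in the optimal list, which allows a share of up to 18.8% beside the 2.95% of all genes. In the wider list 1 was bound (6.25%, 1.11 to 28.3%), beside 7.84% of all genes. This was rib-2, a heparan sulfate polymerase gene, at rank 1214 with a signal of 37.6 and an offset of −121. That summit also lay in the window of the tubulin gene tbb-1, and rib-2 ranked 10709, 3327, 1280 and 1733 in replicates 1, 2, 4 and 5. In replicate 2, ncr-1, which encodes a Niemann-Pick C1-type protein, ranked 1011, and hhat-1, a Hedgehog acyltransferase relative, ranked 855. Pooled ranks of hhat-1, ncr-1 and the Patched-domain gene ptd-2 were 5103, 12824 and 13403. The Hedgehog-related gene qua-1, known for its role in molting, ranked 1928 in replicate 5 and 7574 in replicate 2.

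None of the remaining genes of the list was bound among the 3141 strongest regions of any list. The Dispatched relative che-14 ranked 29370, 23341 and 21200 in replicates 2, 4 and 5, and the Patched-related gene daf-6 ranked 27253 in replicate 2. The heparan sulfate polymerase gene rib-1 ranked 3975 in replicate 4 and the SREBP cleavage-activating protein gene scp-1 ranked 4782 in replicate 5. The sex determination genes tra-1, a GLI relative, and tra-2, a Patched-like receptor, reached 8130 in replicate 5 and 9666 in replicate 4. The glypican genes gpn-1 and lon-2 had a region in 1 replicate each, at 11993 and 9225. ncr-2, hhat-2 and the SREBP gene sbp-1 had none in any list.

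Families that also serve the epidermis and cuticle lay near the share of all genes. Of 156 collagen (col-) genes, 3 were bound in the optimal list (1.92%, 0.656 to 5.5%), beside 2.95% of all genes. In the wider list 13 were bound (8.33%, 4.93 to 13.7%), beside 7.84%. Of 35 cuticlin and cuticlin-like (cut- and cutl-) genes, 0 were bound in the optimal list, which allows up to 8.57%, and 2 in the wider list (5.71%, 1.58 to 18.6%). In the gene body, 0 col- genes held an optimal summit, which allows up to 1.92%, and 1 cut- or cutl- gene did (2.86%, 0.506 to 14.5%). The share of all genes there was 1.62%. With 2000 bp on either side the counts were 14 (8.97%, 5.42 to 14.5%) and 2 (5.71%, 1.58 to 18.6%), beside 6.97%. Median gene lengths were 1220 bp for col- genes and 3952 bp for cut- and cutl- genes. The difference between the members and these families was not tested.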

How the data were processed

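Per the labels, 6 ChIP-seq libraries against ELT-3 formed 4 biological replicates of 1 group. The authors deposited narrowPeak lists, and per the deposited listings the replicate and pooled lists held peaks and background as input for the irreproducible discovery rate procedure, the pooled list used all replicates and the optimal list passed that procedure. The deposited signal value ranked peaks within a list only. Control reads from another experiment were not analysed here, and the aligner, caller, their versions and the depth were not given in the sources used here. Nothing says that replicates came from separate cultures, so their SD may be partly technical. The ce10 lists, the deposited −log10 columns and mitochondrial regions were not used.

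Summits were matched to protein-coding 5′ ends of Ensembl release 115 on WBcel235, counted from 1, and letters were read from the NCBI copy of that assembly. Python 3.11.15, numpy 2.4.6 and scipy 1.17.1 were used, and the counting was checked on simulated data. Wilson 95% intervals cover counting error only, and a count of 0 was read as allowing 3. No test was run over the members, and the share of all genes was used as the background for counts of bound genes. Members and lists were chosen with earlier results of these data known. Named genes were the members bound in the optimal or wider list or in at least 3 replicates, up to 3 further per family by pooled rank, the 16 listed genes, elt-3 and genes sharing a bound summit; others were named after their values were seen.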

Additional observations from a re-analysis of the deposited data

Results flagged for a closer look

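The rank of hog-1 in replicate 4, 28312, stood apart from its ranks of 929, 523 and 1689 in replicates 1, 2 and 5. Of 15 quantities compared across the 4 replicates, this was the 1 with a replicate that far from the others. Chance gives this in about 1 in 20 such groups under a normal spread, which raw ranks need not follow. With 15 quantities compared, 1 such flag can arise by chance alone. The 4 ranks belong to summits at different positions, and the cause of the difference was not tested.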

How the results depend on the processing

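Whether the members lay below or above all genes depended on how summits were assigned. With 2000 bp upstream to 500 bp downstream, 4 members were bound in the optimal list (4.76%, wrt-1, wrt-3, grl-17 and ptr-11), 9 in the wider list (10.7%) and a mean of 7.75 in the replicates (9.23%), against 4.2, 11.1 and 10.3% of all genes, so the direction turned in the optimal list. With the nearest 5′ end within 1000 bp the values were 3 (3.57%), 7 (8.33%) and 8 (9.52%), against 2.68, 7.38 and 7.04%, and the members lay above all genes in each. With 500 bp upstream to 100 bp downstream the wider list held 1 (1.19%), against 5.6%. The wider list held 1 member (1.19%, against 2.95%) when cut to 1047 peaks and 23 (27.4%, against 24.2%) when taken whole, and the replicate mean was 1.5 (1.79%, against 2.54%) over the 1047 strongest regions. Leaving out summits near small RNA genes gave 0 and 1, as above. Leaving out each replicate in turn gave a mean of 4 to 5 members, against 6.41 to 7.01% of all genes. In the optimal list, keeping only peaks among the strongest of all 3 remaining replicates left 110 to 169 peaks and 0 members in each case, against 0.376 to 0.546% of all genes. This setting could not keep wrt-3, which was among the 1047 strongest regions of replicates 2 and 4 alone. A count of 0 of 84 allows a share of up to 3.57%, so these counts of 0 do not separate members from all genes. The GATA share rests on 3 summits, 1 with a site under each setting, while the share over all promoter summits ranged from 20.5 to 49.9%. With 0 and 1000 bp around gene bodies, 5 and 9 members held an optimal summit, against 1.62 and 5.17% of all genes. The body region and the small RNA setting were added after the values were seen. No paired analysis was possible because there is no second group of libraries; members and all genes are set side by side within each replicate. With 84 genes and 1 to 3 bound the intervals are wide, and depth is unknown.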

Other observations

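The ground-like genes grl-27, grl-28, grl-29 and grl-30, all on chromosome V, had no promoter summit in the pooled list or in any replicate list. Of all protein-coding genes, 23.7% had none in any replicate list. The share of 31-base words of each promoter window that occur more than once in the genome was highest in grl-28 among the members, at 20.2%. It was 6.32, 9.65 and 11.9% in grl-27, grl-29 and grl-30. In grl-31, near them, it was 10.6%, and that gene had a region in replicate 5 at rank 11289. The part of repeated words in the missing summits was not tested. No member had over 50% of such words, where 2.99% of all genes did.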
